A study of Rattus norvegicus with 9 samples.

Results

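Tumors that CC-531 cells had formed in the peritoneal cavity of rats were compared with the same cells grown in flat culture, using 6 of the 9 RNA-seq libraries of the series. The libraries were chosen by their labels as ex vivo tumors 1 to 3 and as CC-531 cells of passages p5, p8 and p11, and every gene of the count table entered the comparison. A narrower set holds the genes that only 1 of the 2 sample types expressed: at least 1 CPM (counts per 1000000 counts of the library, after scaling) in each of its 3 libraries and under 0.1 CPM in each library of the other type. By this rule 792 of the 34322 genes in the table were expressed only in ex vivo tumors and 0 only in cells. The other 3 libraries, from CC-531 organoids of passages p7, p8 and p9 grown in matrigel, are given as levels only, scaled over all 9 libraries.

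CC-531 is a colon carcinoma line from WAG/Rij rats, so cells injected into this strain meet a host of their own inbred background. The ex vivo tumors were taken from WAG/Rij rats that had received CC-531 cells by intraperitoneal injection at an age of 8 to 10 weeks, and the cells were kept in RPMI1640 medium with fetal bovine serum. No drug or heat treatment is named for any sequenced sample. The methods state that each sample type was taken at 3 passages, but the labels give the tumors no passage and no animal. Whether the 3 libraries of a sample type stem from separate cultures or rats is not said elsewhere, and the p-values therefore reflect the spread among libraries alone, part of which may be technical.

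A tumor in the peritoneum is a mixed tissue. Carcinoma cells lie between fibroblasts that deposit collagen, blood and lymph vessels, leukocytes and the surrounding mesothelium and fat, while a culture of a cell line holds tumor cells alone. Bulk RNA adds all of these together, so that fewer cells of a type and less RNA per cell cannot be told apart, and a gene that is silent in the cultured line can still have been switched on in the tumor cells of the animal.

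Total counts were 12601774 to 18438055 in ex vivo tumors and 16983060 to 24335921 in cells. Between 20954 and 24348 genes had a count in an ex vivo tumor, against 18577 to 19077 in a cell library, although the cell libraries were on the whole the deeper ones. The correlation of log2(CPM + 1) across the 15690 genes that passed the filter on low counts (Pearson's r) was 0.948 to 0.984 among tumors, 0.981 to 0.990 among cells and 0.813 to 0.886 between the types. The points behind r are genes and not independent samples. Tumors 2 and 3 were the most alike of the tumors, and tumor 1 stood apart: 84 of its genes lay over 4-fold above both other tumors and 12 over 4-fold below, against 0 and 12 genes for tumor 2 and 0 of either kind for tumor 3. Cells p11 lay over 4-fold above both other passages for 21 genes. Where leaving out a library changed the call of a gene described here, this is said beside it.

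No gene was expressed only in cells, and the 792 genes expressed only in ex vivo tumors took 1.84%, 1.16% and 1.58% of the counts of tumors 1, 2 and 3. The same genes gathered 150, 112 and 97 counts in all in cells p5, p8 and p11, and 535 of them had no count in any cell library. Their typical level was low, with a median of 6.14 CPM over the 3 tumors. Above that, 196 genes exceeded 10 CPM in every tumor and 14 exceeded 100 CPM. The annotation matched 687 of them to protein-coding genes, 29 to long noncoding RNAs and 21 to variable segments of antigen receptors, while 53 were not matched. Because the rule used the levels themselves, these genes are described and not tested. Just inside the limits the highest cell library was at 0.0879 CPM and the lowest tumor at 1.01 CPM, and just outside them these values were 0.114 and 0.983 CPM. At 0.1 CPM a cell library holds at most 2 counts of a gene, so the absence of a gene from cells means absence at this depth.

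**Figure D1:**
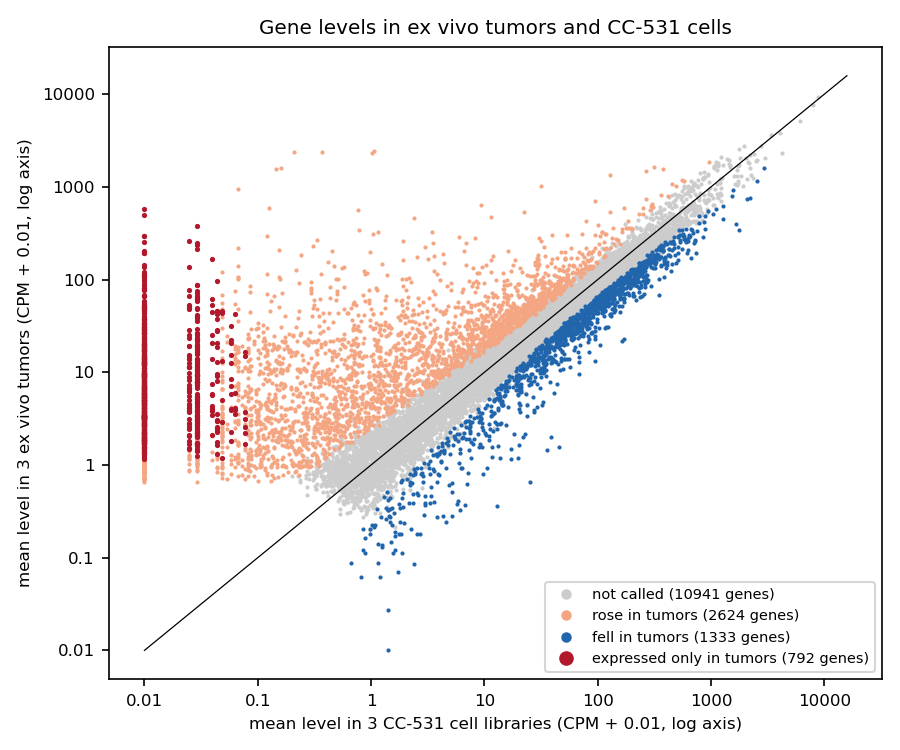
Mean level of each of the 15690 tested genes in the 3 ex vivo tumors (vertical, CPM + 0.01, log axis) against its mean in the 3 CC-531 cell libraries (horizontal, CPM + 0.01, log axis). The 792 genes expressed only in tumors (dark red) form columns at the left edge, the other rises (light red) lie above the diagonal of equal levels, the 1333 falls (blue) lie close below it, and 10941 genes (grey) were not called.

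The highest of the genes expressed only in tumors belonged to matrix, to antigen presentation, to complement and to blood. Mgp, which encodes the matrix Gla protein, an inhibitor of calcification made by connective tissue, was at 623, 371 and 727 CPM in ex vivo tumors 1, 2 and 3 and had no count in cells. With 3 counts over the 3 cell libraries as the floor (0.0520 CPM), it was at least 10484-fold higher in tumors. Tumor 2 was the lowest of the tumors. Postn, which encodes periostin, a matrix protein of activated fibroblasts, was at 393, 111 and 209 CPM in tumors, against 1 count in cells p8 and none in p5 or p11.

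The class II molecules that present peptides to helper T cells came next. RT1-Ba was at 598, 396 and 487 CPM in tumors, with no count in cells (at least 9234-fold). RT1-Bb was at 266, 137 and 209 CPM in tumors, with no count in cells (at least 3743-fold). RT1-Db1 was at 536, 240.2 and 367 CPM in tumors, against 1 count in cells p8. Tumor 1 was the highest and tumor 2 the lowest for each of these. Ctss, which encodes cathepsin S, the protease that trims the invariant chain in class II compartments, was at 244, 168 and 228 CPM in tumors, against 1 count in cells. The RT1 genes are a family of similar sequences, as are the globin and immunoglobulin genes, so that reads may have been shared between copies.

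Complement formed the third set. C1qa, C1qb and C1qc encode the chains of C1q, the recognition unit of the classical pathway, which is made chiefly by macrophages. C1qa was at 394, 212 and 271 CPM in tumors, with no count in cells (at least 5418-fold). C1qb was at 356, 187 and 250.2 CPM in tumors, against 1 count in cells, and C1qc at 302, 218 and 245 CPM in tumors, with no count in cells. Tumor 1 was the highest and tumor 2 the lowest for each chain. Serping1, the inhibitor of the first complement proteases, was at 212, 169 and 196 CPM in tumors and had no count in cells (at least 3638-fold). C7, a component of the membrane attack complex, was at 155, 90.1 and 259 CPM in tumors, against 2 counts in cells.

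Globin and antibody genes were also in the set. Hba-a1 (alpha globin) was at 596, 128 and 160.3 CPM in tumors and Hbb (beta globin) at 431, 41.2 and 106 CPM, both with no count in cells. The immunoglobulin heavy variable gene listed as Ighv was at 604, 39.9 and 95.6 CPM in tumors, against 1 count in cells. Tumor 1 was the highest for each of the 3 genes and tumor 2 the lowest.

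Calca, also among the 15 highest genes, encodes a hormone. Its products are calcitonin and, by alternative splicing, the neuropeptide CGRP, known from thyroid C cells and sensory neurons. It was at 154, 225 and 219.6 CPM in tumors and had no count in cells (at least 3898-fold), with tumor 1 the lowest and tumors 2 and 3 level. The organoids had 0.634, 0.387 and 0.721 CPM in p7, p8 and p9, a low level in each. None of the other 14 genes reached 1 CPM in an organoid library.

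Most of the set was also absent from the organoids: 566 of the 792 genes (71.5%) were under 0.1 CPM in each organoid library, 41 reached 1 CPM in at least 1 of them and 6 in all 3. These 6 were named after their values were seen. Stc1, which encodes the secreted glycoprotein stanniocalcin, was at 12.3, 7.69 and 8.92 CPM in tumors, against 0.0440, 0.0576 and 0 CPM in cells p5, p8 and p11, and at 13.6, 20.8 and 19.9 CPM in organoids, above every tumor. Clrn3, which encodes a clarin family membrane protein, was at 2.12, 1.70 and 1.32 CPM in tumors, with no count in cells, and at 7.36, 5.41 and 3.996 CPM in organoids. For both, matrix-grown cells without a host had as much of the transcript as the tumors or more. Hopx, which encodes a homeodomain-only protein found in quiescent intestinal stem cells of the mouse, was at 23.6, 14.6 and 18.5 CPM in tumors, with no count in cells, and at 2.34, 1.16 and 1.05 CPM in organoids. Ednra (endothelin receptor A), Naip5 (an inflammasome sensor) and Sytl5 (a regulator of vesicle transport) were at 1.16 to 2.58 CPM in organoids.

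An element of interferon-driven promoters was counted in the 250 bases before the start site of these genes, to show what the class that includes the guanylate-binding proteins looks like at the sequence level. The motif, a pair of GAAA repeats with 2 bases of any kind between them, read on either strand, was in 6.23% of the 626 windows of the 533 genes that matched the RefSeq table of build GRCr8, in 5.24% of the windows of all rises, in 1.80% of those of all falls and in 3.41% of all 33469 windows. A match is a description of the letters and not a binding site. Gbp5, a guanylate-binding protein gene that interferons induce, was chosen to print after its values were seen, at 84.6, 127 and 78.5 CPM in tumors and 0.0440, 0 and 0.0569 CPM in cells. Its window lies on the plus strand at chr2:233910749-233910998, and capitals mark the match, which is on the opposite strand.
Gbp5: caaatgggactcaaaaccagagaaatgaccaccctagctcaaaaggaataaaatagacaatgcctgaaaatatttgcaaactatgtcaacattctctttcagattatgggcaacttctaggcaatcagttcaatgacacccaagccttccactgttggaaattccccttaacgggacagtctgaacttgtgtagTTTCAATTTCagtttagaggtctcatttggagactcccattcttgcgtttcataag

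Turning to all genes, 15690 of the 26733 genes with a count passed the filter on low counts and were tested. A gene with no count in cells could pass this filter only by its tumor level, so it could not fall. In ex vivo tumors 3416 genes rose (21.8% of those tested) and 1333 fell (8.50%), 4749 in all (30.3%), at an adjusted p under 0.05 by edgeR's quasi-likelihood test with Benjamini-Hochberg adjustment. The median log2 fold change, tumors over cells, was 0.07 over all genes tested, 4.01 over the rises and -1.07 over the falls. With the 689 rises that had no count in cells at their lower bound, the median of the rises was 3.95. Rises were thus mostly large and falls mostly small: 2486 rises and 159 falls exceeded 4-fold, and 1691 rises and 17 falls exceeded 16-fold with these bounds. Tested against a change of 2-fold in place of none, 2511 genes rose and 212 fell. A value in parentheses after a pair of levels is the log2 fold change ± its standard error, with 3 libraries per type. The libraries of the 2 types did not overlap for 46.3% of the genes tested.

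Among the highest-expressed genes, Eef1a1 (an elongation factor) was at 10641, 8373 and 8868 CPM in tumors and 9257, 6843 and 10512 CPM in cells, and Actb (beta-actin) at 9859.7, 6042 and 6958 CPM in tumors and 7522, 9190.2 and 7346 CPM in cells. Neither was called, nor were Pabpc1, Hsp90ab1 and Eef2. Fn1, which encodes fibronectin, was at 2069, 1973 and 2895 CPM in tumors and 6071, 4932 and 1787 CPM in cells (-0.88 ± 0.41, edgeR adjusted p = 0.135). Cells p11 lay below p5, p8 and the lowest tumor, so that the groups overlapped. Without cells p11 Fn1 was called as a fall (log2 fold change -1.25, edgeR adjusted p = 0.0103), and likewise without a filter on low counts (-0.95, edgeR adjusted p = 0.0258).

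The number of falls depended on single cell libraries and on the scaling. It was 1333 with all libraries, 831 without cells p8, 872 without cells p5 and 1186 or 1093 without tumor 2 or 3. With limma on quantile-normalized values, which shift the median of all genes by -0.33 (log2), 45.7% of the calls were rises and 54.3% falls, in place of 71.9% and 28.1%.

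Among called genes with non-overlapping libraries and a mean of at least 1 CPM in both types, the largest rises were those of fibrillar collagen. Col1a1, the gene of a type I collagen chain, was at 2469.9, 1561 and 3357 CPM in tumors, against 0.440, 1.61 and 1.08 CPM in cells, a log2 fold change of 11.23 ± 0.59 (edgeR adjusted p = 1.97e-07). Col3a1 was at 2112, 1641 and 3147 CPM in tumors and 1.49, 0.749 and 0.797 CPM in cells (11.11 ± 0.50). No cell library came near the tumors for either gene. Col6a2, Col6a3 and Col5a2, with Fbn1 (fibrillin), Nid1 (nidogen of basement membranes) and Ccdc80 (a matrix protein of fibroblasts and fat), rose by 6.14 to 7.60 on the log2 scale. Tumor 3 had the highest level of all 8 matrix genes.

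Outside the matrix, the largest rises included phagocyte, complement and interferon genes. Gpnmb, a glycoprotein of lipid-laden macrophages, was at 272, 393 and 325 CPM in tumors and 1.01, 1.15 and 1.25 CPM in cells (8.18 ± 0.30, edgeR adjusted p = 3.71e-08). Lcp1, the leukocyte plastin, was at 381, 239 and 303 CPM in tumors and 0.835, 0.749 and 1.48 CPM in cells (8.23 ± 0.37). C4a and C1r rose by 6.57 and 6.40 on the same scale. Ifi47, an interferon-induced GTPase, was at 81.2, 75.4 and 89.0 CPM in tumors and 0.747, 1.15 and 1.37 CPM in cells (6.24 ± 0.30), and Nlrc5, the transactivator of class I genes, at 58.0, 86.1 and 89.3 CPM in tumors and 0.440, 0.864 and 2.05 CPM in cells (6.14 ± 0.48, or 6.92 without cells p11). Ifi47 was level across the tumors, and Nlrc5 was lowest in tumor 1.

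Txnip differed from these in its organoid levels. The gene encodes a thioredoxin-binding protein that responds to glucose and restrains its uptake. It was at 215, 125 and 192 CPM in tumors and 0.528, 2.82 and 4.21 CPM in cells (6.16 ± 0.58, edgeR adjusted p = 9.84e-06), and at 196, 84.8 and 88.6 CPM in organoids p7, p8 and p9. Its log2 fold change was 6.77 without cells p11. None of the other 14 largest rises reached such a level in an organoid library. Still, Col6a3 was at 24.2, 15.6 and 14.8 CPM in organoids, against 2.64, 0.864 and 2.22 CPM in cells p5, p8 and p11. Ifi47 was at 9.07, 3.09 and 3.60 CPM in organoids, also above every cell library.

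Markers of the cells of connective tissue rose with few exceptions. Of 14 fibroblast markers 13 rose and 0 fell, against 21.8% rises among all genes, and the 14 markers summed to 6983, 4740.1 and 9604 CPM in tumors 1, 2 and 3 and 199, 168 and 156 CPM in cells p5, p8 and p11. The median log2 fold change was 11.21 as fitted and 9.92 with genes without a count in cells at their lower bound. Dcn, the collagen-binding proteoglycan decorin, was at 114, 63.2 and 94.6 CPM in tumors with no count in cells (at least 1672-fold), and Lum, Thy1 and Dpt also had no count in cells. The exception was Fbln1 (fibulin), at 159, 165 and 199 CPM in tumors and 192, 159 and 146 CPM in cells, named for being the 1 marker not called. Of 11 markers of pericytes and smooth muscle 10 rose, among them Acta2 (smooth muscle actin) at 229, 200.1 and 380.2 CPM in tumors and 0.220, 0.173 and 0.569 CPM in cells (9.71 ± 0.47, edgeR adjusted p = 1.21e-07). Without cells p11 the log2 fold change of Acta2 was 10.35. Rgs5 and Kcnj8, genes of pericytes, had no count in cells.

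Vessel markers mostly rose. Of 13 markers of blood vessel endothelium 10 rose (76.9%, against 21.8% of all genes) and 1 fell (7.69%, against 8.50%). The median log2 fold change was 5.81. Of the 13, 4 had no count in cells and could not fall. Kdr, the main receptor for VEGF, was at 26.2, 21.8 and 30.2 CPM in tumors with no count in cells (at least 489.8-fold), and Plvap, Emcn and Cldn5 likewise had none. Cldn5 was mostly in tumor 1, at 16.5, 1.03 and 1.47 CPM in tumors 1, 2 and 3. Tek, which encodes the angiopoietin receptor, went against the list at 25.3, 25.5 and 32.5 CPM in tumors and 46.3, 49.8 and 51.2 CPM in cells (-0.82 ± 0.21, edgeR adjusted p = 0.0113). All 3 cell libraries lay above all tumors, but the call was lost in the fit of all 9 libraries (edgeR adjusted p = 0.121). Of 8 lymphatic markers 7 rose (87.5%), and 4 of the 8 had no count in cells. Lyve1, the hyaluronan receptor of lymphatic endothelium, was at 72.3, 12.4 and 15.4 CPM in tumors, and Ccl21, the chemokine of lymph nodes and lymphatic vessels, at 195, 1.34 and 2.56 CPM in tumors, both with no count in cells. Ccl21 was high in tumor 1 alone, whereas Prox1, the transcription factor of lymphatic identity, was lowest there at 0.681, 5.01 and 5.27 CPM.

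Mesothelial markers summed to 467, 361 and 385 CPM in tumors and 304, 388 and 460.1 CPM in cells. Most of this was Msln alone, with a mean of 372 of 404 CPM in tumors and 378 of 384 CPM in cells. Lrrn4, for one, was less even, at 5.52, 9.34 and 19.2 CPM in tumors. Of the 7 tested 4 rose: Wt1, Lrrn4, Muc16 and Rspo1. Msln (mesothelin), made by mesothelium and by many carcinomas, was at 438, 336 and 342 CPM in tumors and 299, 383 and 452 CPM in cells (-0.02 ± 0.24, 95% interval -0.55 to 0.50, log2). The cultured line itself had the transcript within the range of the tumors or near it. Adipocyte markers were concentrated in tumor 1, where they summed to 654 CPM, against 41.7 and 56.0 CPM in tumors 2 and 3 and 39.7, 24.6 and 43.0 CPM in cells. Fabp4, the fatty acid carrier of adipocytes and vessels, was at 293, 13.1 and 16.4 CPM in tumors and 0.0879, 0.115 and 0.228 CPM in cells, and Cidec, a lipid droplet protein, at 35.7, 0.516 and 0.698 CPM in tumors and 0.660, 0.461 and 0.569 CPM in cells, a call lost without tumor 1 or any cell library and with limma on either kind of values. Of 6 adipocyte markers 5 rose and 1 fell with all libraries, and 2 rose without tumor 1, 2 without cells p5 or p8 and 3 without cells p11. The fall was that of Pparg, the nuclear receptor that drives fat cell differentiation, at 6.81, 4.44 and 4.89 CPM in tumors and 33.5, 16.4 and 30.8 CPM in cells (-2.33 ± 0.34).

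Pancreatic acinar markers were nearly confined to tumor 1, with a sum over 10 markers of 192 CPM there, 6.81 CPM in tumor 2, 13.9 CPM in tumor 3 and 3.30, 2.76 and 3.59 CPM in cells. Of these markers 2 were tested, and both rose with all libraries (1 without tumor 1 or without any cell library). Hepatocyte markers rose in 5 of 5 tested genes, 3 without tumor 1 or without cells p8, and 3 of the 8 listed were below the filter. Alb (albumin) was at 81.8, 2.48 and 23.7 CPM in tumors and Tf (transferrin) at 113, 32.6 and 54.6 CPM, against 3 counts and 1 count in cells. Skeletal muscle markers were low, with sums of 18.98, 11.5 and 11.6 CPM in tumors and 6.24, 4.72 and 4.72 CPM in cells, and 2 of 4 tested rose (1 without tumor 1, tumor 3 or any cell library). Of the Schwann cell and nerve markers 2 of 4 tested rose: Ncam1, a neural adhesion molecule, at 27.1, 35.5 and 66.8 CPM in tumors and 0.264, 0.288 and 0.683 CPM in cells, and Uchl1, with no count in cells.

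**Figure D2:**
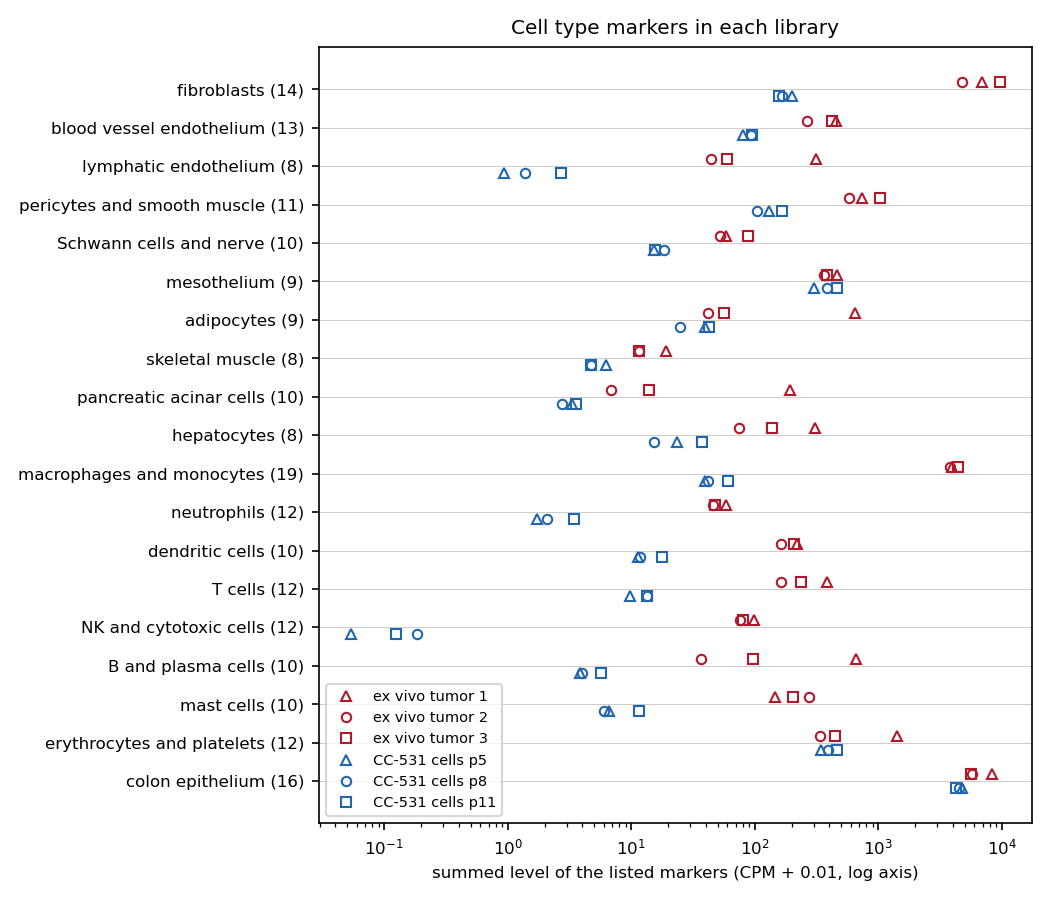
Summed level of the marker genes of 19 cell types (CPM + 0.01, log axis) in ex vivo tumors 1 to 3 (red) and CC-531 cells p5, p8 and p11 (blue), with the number of markers in the table in parentheses. Macrophage markers lie close together in the 3 tumors, while tumor 1 (red triangles) lies apart for adipocytes, pancreatic acinar cells, lymphatic endothelium and B and plasma cells. The mesothelial sum, which is mostly Msln, overlaps between tumors and cells.

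Leukocyte markers rose in every list, each time at a higher share than the 21.8% of all genes tested. A marker without a count in cells passed the filter only by its tumor level, so it could not fall. All 18 macrophage and monocyte markers tested rose. Of the 19 listed, 1 was below the filter and 9 had no count in cells. The list summed to 3944, 3799.7 and 4447 CPM in tumors and 39.8, 41.9 and 60.4 CPM in cells. Lyz2 (lysozyme) was at 1927, 2386 and 2749 CPM in tumors and 0.0879, 0.230 and 0.285 CPM in cells (13.52 ± 0.48, edgeR adjusted p = 3.71e-08). Cd163, the scavenger receptor for hemoglobin, was at 67.8, 37.8 and 47.6 CPM in tumors with no count in cells. Neutrophil markers were lower: 6 of 7 tested markers rose, the granule genes Mpo, Elane, Ltf, Camp and Np4 were below the filter on low counts, and the list summed to 59.1, 45.7 and 47.8 CPM in tumors and 1.71, 2.07 and 3.41 CPM in cells. Csf3r, the receptor for the growth factor of neutrophils, was at 16.3, 19.7 and 23.3 CPM in tumors with no count in cells.

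Mast cell markers had their highest sum in tumor 2. All 10 of their markers rose, 7 of them with no count in cells. They summed to 145, 273 and 205 CPM in tumors and 6.55, 6.05 and 11.6 CPM in cells. Mcpt2, a chymase of mucosal mast cells that belongs to a family of similar genes, was at 62.5, 152 and 90.2 CPM in tumors with no count in cells (at least 2082-fold). Cpa3, their carboxypeptidase, was at 15.2, 25.5 and 21.6 CPM in tumors and Cma1, another chymase, at 7.41, 5.83 and 7.37 CPM, both with no count in cells. Dendritic cell markers rose in 8 of 9 tested genes, among them Clec10a at 83.6, 63.4 and 83.4 CPM in tumors, against 1 count in cells.

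Of 12 T cell markers 11 rose (91.7%, against 21.8% of all genes). Of the 12, 8 were in the set expressed only in tumors and 7 had no count in cells. Cd4 was at 119, 82.4 and 122 CPM in tumors, Cd8a at 43.2, 22.1 and 26.8 CPM and Cd3e at 56.0, 13.2 and 19.5 CPM, each with no count in cells. Cd4 is also carried by rat macrophages, and its 3 tumors were level where Cd3e was over 2-fold higher in tumor 1. Cd28, a costimulatory receptor, went the other way at 5.75, 2.53 and 4.96 CPM in tumors and 7.78, 11.98 and 11.8 CPM in cells (-1.26 ± 0.39, edgeR adjusted p = 0.0284), a call lost without tumor 2 or 3 or cells p8 or p11, in the fit of all 9 libraries and with scaling from genes over 10 CPM in every library. All 11 tested markers of NK and cytotoxic cells rose, from a cell background of at most 0.173 CPM over the whole list. Of the 12 listed, 1 was below the filter and 8 had no count in cells. Klrk1, the activating receptor NKG2D, was at 47.9, 44.7 and 51.1 CPM in tumors, Prf1 (perforin) at 17.2, 4.90 and 5.43 CPM and Nkg7 at 5.45, 4.80 and 3.96 CPM.

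B and plasma cell markers rose in 8 of 8 tested genes (2 of the 10 listed were below the filter), also without tumor 1, but their amount rested on it. They summed to 667 CPM in tumor 1, 36.4 and 96.1 CPM in tumors 2 and 3 and 3.83, 3.97 and 5.63 CPM in cells. Cd79a, a chain of the B cell receptor, was at 121, 2.22 and 9.77 CPM in tumors and 0, 0.0576 and 0.171 CPM in cells, and Jchain, which joins secreted antibodies, at 236, 19.1 and 46.2 CPM in tumors and 0.747, 0.346 and 0.398 CPM in cells. Tumor 1 lay far above both other tumors for either gene. Erythrocyte and platelet markers rose in 7 of 9 tested genes (77.8%, against 21.8% of all genes) and fell in 1 (11.1%, against 8.50%). The fall was that of Ppbp, the platelet basic protein and a neutrophil-attracting chemokine, at 126, 106 and 90.7 CPM in tumors and 339, 374 and 451 CPM in cells (-1.85 ± 0.23, edgeR adjusted p = 7.56e-05), so this gene, too, was higher in the line in culture.

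Genes that transmit signals in leukocytes moved as the markers did: all 20 members of that list rose (median log2 fold change 8.98 as fitted and 8.38 with genes without a count in cells at their lower bound, against 0.07 over all genes). Laptm5 was at 221, 86.2 and 126 CPM in tumors and Dock2 at 77.4, 51.7 and 68.7 CPM, both with no count in cells. Of 18 genes for Toll-like receptors and the inflammasome 15 rose (83.3%, against 21.8% of all genes) and 1 fell. The endosomal receptors Tlr7 and Tlr8, which sense single-stranded RNA, and the inflammasome sensor Nlrp3 had no count in cells and 10.1 to 23.1 CPM in tumors. Tlr5, the receptor for flagellin on epithelium, was at 10.9, 18.6 and 18.8 CPM in tumors and 28.3, 23.4 and 36.4 CPM in cells (-0.86 ± 0.29, edgeR adjusted p = 0.0406), a fall that was lost without tumor 1 or 3 or cells p5 or p11 and under 5 other settings. Of 19 tested genes of the TNF superfamily 14 rose and 0 fell, led by Tnfsf10 (TRAIL) at 7.11, 13.1 and 12.02 CPM in tumors, against 1 count in cells, and Cd40 at 13.6, 4.64 and 5.04 CPM in tumors, against 1 count in cells.

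The insulin-like growth factor axis showed ligand and receptor moving in opposite directions. Igf1, the ligand, was at 133, 111 and 104 CPM in tumors with no count in cells (at least 2217-fold) and at 0, 0 and 0 CPM in organoids. Igf1r, its receptor, was at 20.6, 45.1 and 57.2 CPM in tumors and 133, 136 and 123 CPM in cells (-1.67 ± 0.32, edgeR adjusted p = 0.00174). All 3 cell libraries lay above all tumors, of which tumor 1 was the lowest. Of the binding proteins that hold the ligand outside cells, Igfbp3 and Igfbp7 rose: Igfbp3 was at 84.4, 72.2 and 86.6 CPM in tumors with no count in cells, and Igfbp7 at 164, 198 and 262 CPM in tumors and 0.0879, 0.173 and 0.171 CPM in cells. Igfbp4 was the highest member of the list at 894, 622 and 709.7 CPM in tumors and 494, 637 and 674 CPM in cells, and was not called. In all, 8 of the 14 tested members rose (57.1%, against 21.8% of all genes) and 1 fell (7.14%, against 8.50%).

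Other growth factor and hormone pathways split within themselves. In the PDGF and FGF list 6 of 12 tested genes rose (50%, against 21.8% of all genes) and 2 fell (16.7%, against 8.50%). Fgfr1, an FGF receptor, was at 39.0, 24.5 and 44.4 CPM in tumors and 2.07, 1.32 and 3.53 CPM in cells (3.96 ± 0.40, edgeR adjusted p = 1.72e-05), while Fgfbp1, which releases FGFs from matrix, was at 7.26, 3.10 and 2.95 CPM in tumors and 25.3, 7.03 and 39.4 CPM in cells (-2.44 ± 0.57). Hedgehog genes rose in 5 of 11 tested members (45.5%) and fell in 0, with 3 rises without tumor 3. Gas1, a Hedgehog co-receptor of mesenchyme, was at 12.4, 9.39 and 15.2 CPM in tumors with no count in cells, whereas Smo, the transducer and highest member, was at 52.8, 112 and 109 CPM in tumors and 113, 132 and 122 CPM in cells and was not called. Glucocorticoid targets rose in 7 of 14 genes (50%) and fell in 1 (7.14%). The fall was that of Sgk1, a kinase of ion transport, at 59.7, 64.0 and 76.8 CPM in tumors and 139.6, 251 and 235 CPM in cells (-1.64 ± 0.26). Zbtb16 and Pdk4, which steroid hormone and fasting induce in many tissues, each had 1 count in cells and 3.10 to 10.8 CPM in tumors.

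Of 18 genes of the circadian clock 7 rose (38.9%, against 21.8% of all genes) and 1 fell (5.56%, against 8.50%). Per1, a repressor of the loop, was at 42.2, 49.0 and 56.5 CPM in tumors and 11.2, 11.5 and 18.3 CPM in cells (1.85 ± 0.26, edgeR adjusted p = 0.000215). Hlf and Rora, a target and a regulator of the loop, were at 1.32 to 3.72 CPM in tumors and at most 0.220 CPM in cells. Clock, the activator, was at 28.0, 39.4 and 46.4 CPM in tumors and 65.5, 62.7 and 68.7 CPM in cells (-0.79 ± 0.23), a call lost without any 1 of the cell libraries and with housekeeping scaling. The labels give no hour at which tumors or cells were taken.

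Iron and heme genes rose in 7 of 18 members (38.9%, against 21.8% of all genes) and fell in 0. Still, 1 or 2 falls were called without tumor 1, cells p8 or cells p11. Slc11a1, the metal exporter of phagosomes, was at 22.5, 23.1 and 32.2 CPM in tumors, against 1 count in cells. Ftl1, the ferritin light chain and highest member, was at 1829.5, 823 and 1025 CPM in tumors and 2611, 1807 and 1812 CPM in cells and was not called. It was called as a fall without tumor 1 (log2 fold change -1.19, edgeR adjusted p = 0.00389), without a filter, and with DESeq2, housekeeping scaling, quantile normalization or limma-voom. Lysosomal genes rose in 7 of 20 members (35%, against 21.8% of all genes) and fell in 0. Only 4 rises were left without tumor 1, cells p5 or cells p8. Psap, the precursor of the saposins that activate lipid breakdown, was at 1802, 1249.8 and 1614 CPM in tumors and 392, 354 and 380.1 CPM in cells (2.05 ± 0.25, edgeR adjusted p = 6.92e-05). It was the highest member of the list, and its tumors lay far above its cells.

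**Figure D3:**
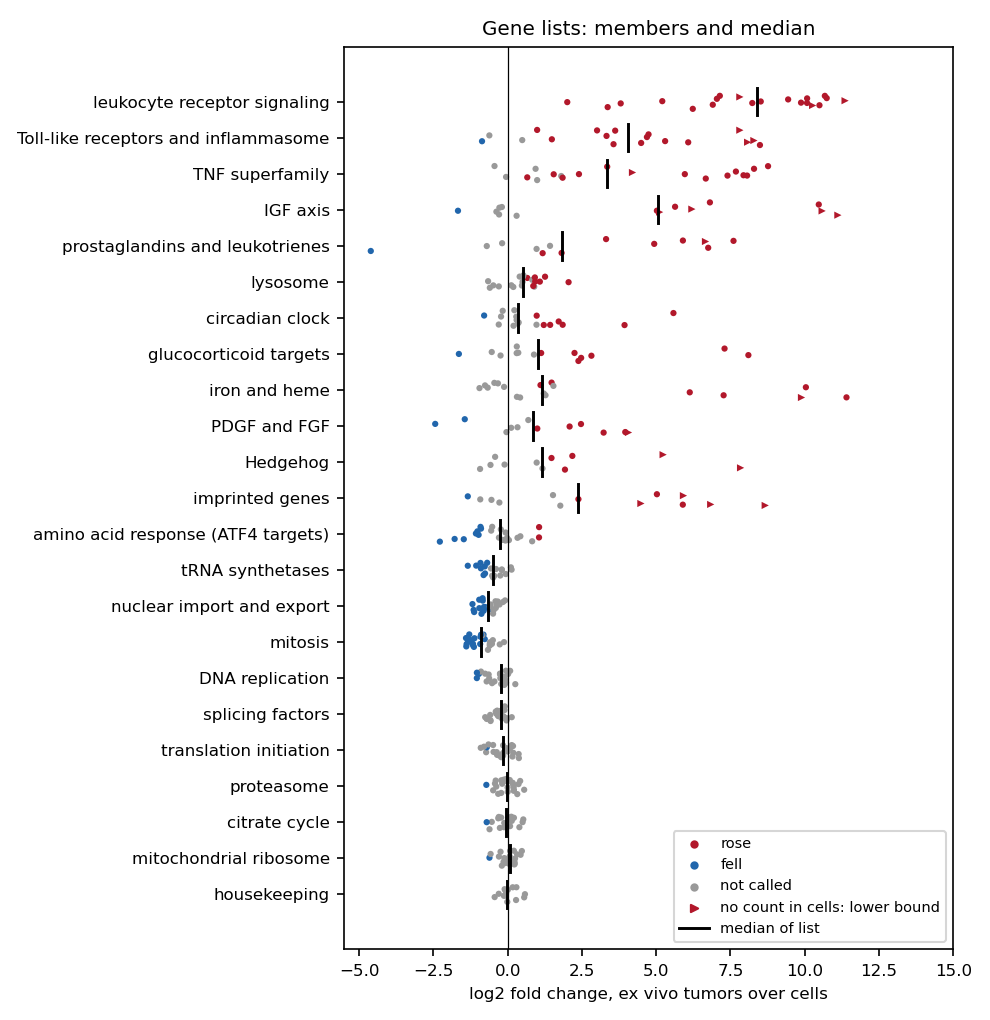
Log2 fold change, ex vivo tumors over cells, of each tested member of 23 gene lists, colored by call (red rose, blue fell, grey not called), with lower bounds as triangles where cells had no count and a black bar at the list's median. Leukocyte signaling genes lie far to the right. Mitosis, nuclear transport, tRNA synthetase and splicing genes lie mostly just left of 0, and proteasome and housekeeping genes surround 0.

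Of 15 tested markers of colon epithelium 8 rose (53.3%, against 21.8% of all genes) and 0 fell. Rises numbered 4 without tumor 1, 5 without cells p5 and 4 without cells p8. Vil1, the microvillus protein villin, was at 97.9, 98.8 and 101 CPM in tumors and 17.9, 11.3 and 18.3 CPM in cells (2.64 ± 0.24, edgeR adjusted p = 8.23e-06), and Cdh17, an intestinal cadherin, at 160.5, 132 and 137 CPM in tumors and 34.4, 15.8 and 33.4 CPM in cells (2.36 ± 0.29, edgeR adjusted p = 8.03e-05). The tumors were level with each other and did not overlap with the cells for either gene. Guca2a (guanylin) was at 3.55, 1.65 and 2.25 CPM in tumors and 0, 0.518 and 0.626 CPM in cells, a call lost without tumor 1 or cells p8, with all 9 libraries and with quantile normalization. Krt8, the highest member, was at 2438, 1197 and 1351 CPM in tumors and 1077, 1059 and 1049 CPM in cells and was not called (0.65 ± 0.30, 95% interval -0.02 to 1.31). The summed level of the list was 8289, 5745 and 5590.3 CPM in tumors and 4736, 4539 and 4283 CPM in cells.

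Falls were ranked among called genes with non-overlapping libraries and a mean of at least 1 CPM in both types. The 3 largest were those of a kinase, a cyclooxygenase and a cytokine. Wnk3, a kinase that regulates ion transport, was at 0.983, 1.75 and 1.94 CPM in tumors and 64.7, 44.8 and 27.4 CPM in cells (-4.86 ± 0.40, edgeR adjusted p = 4.02e-06). Ptgs2, the inducible cyclooxygenase that makes prostaglandin precursors, was at 0.303, 1.70 and 2.33 CPM in tumors and 20.05, 32.6 and 54.1 CPM in cells (-4.61 ± 0.58, edgeR adjusted p = 8.43e-05). Non-overlap was required by the choice, and the gap between the types was wide for either gene. The organoids had Ptgs2 at 19.3, 34.6 and 37.3 CPM and Wnk3 at 0.878, 2.21 and 2.16 CPM, near the cells for the cyclooxygenase and near the tumors for the kinase. Il1a, the alarm cytokine interleukin-1 alpha, was at 1.82, 2.32 and 1.86 CPM in tumors and 3.08, 9.39 and 104 CPM in cells (-4.26 ± 1.05, edgeR adjusted p = 0.00881), of which cells p11 held most. The log2 fold change of Il1a was -1.63 without cells p11 (edgeR adjusted p = 0.0383) and -2.29 with limma-voom, where the call was lost.

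The other 12 of these 15 fell by less. Vgll1, a partner of the TEAD transcription factors, was at 0.908, 1.29 and 1.32 CPM in tumors and 17.1, 17.0 and 25.7 CPM in cells (-4.07 ± 0.36). Chrnb4, a subunit of nicotinic acetylcholine receptors, was at 0.681, 1.60 and 1.16 CPM in tumors and 18.5, 17.6 and 15.3 CPM in cells (-3.87 ± 0.38). Akap12, a scaffold that binds protein kinase A, had the highest level of the 15 in cells, at 19.3, 21.0 and 25.4 CPM in tumors and 169, 138 and 181 CPM in cells (-2.89 ± 0.22). Nrg1, the ligand of ERBB receptors, was at 4.24, 5.01 and 4.11 CPM in tumors and 28.4, 32.1 and 35.7 CPM in cells (-2.84 ± 0.26). Vsnl1, Arhgap20, Map2, Ptprd, Nrn1, Padi1, Slc29a4 and Mybl1 fell by 2.82 to 3.61 on the same scale, and the log2 fold change of Map2 was -2.48 without cells p5. Nrn1, which encodes neuritin, was at 16.2, 21.3 and 20.4 CPM in organoids, above all cells and tumors.

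**Figure D4:**
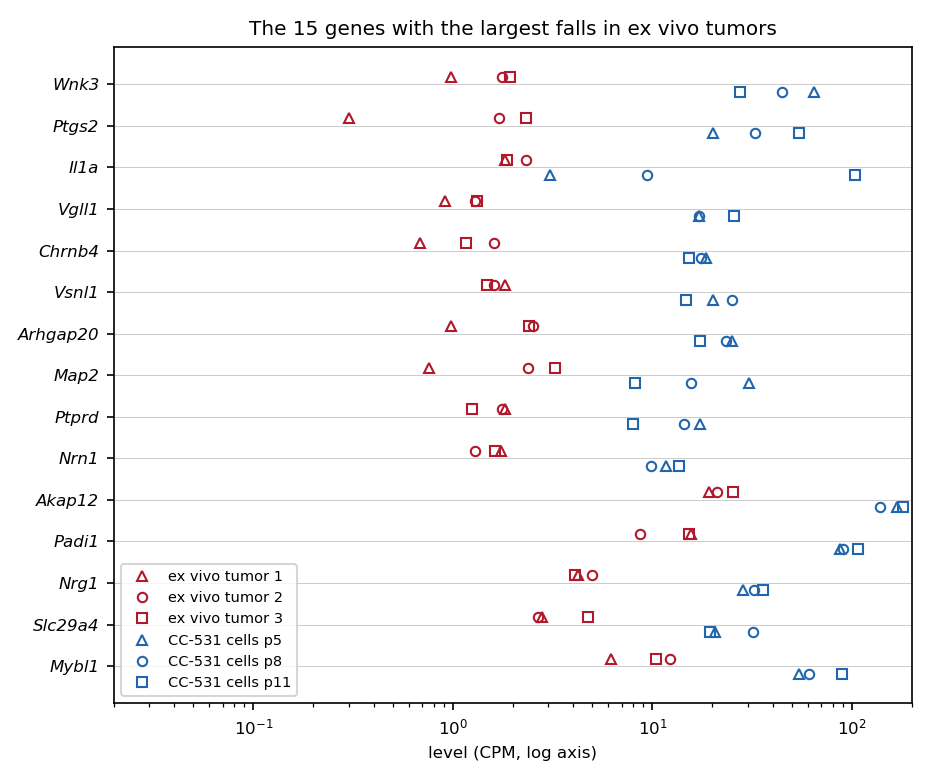
Level (CPM, log axis) in each library of the 15 genes with the largest falls, with ex vivo tumors 1 to 3 in red and CC-531 cells p5, p8 and p11 in blue. Genes were chosen to have no overlap of red and blue symbols, and cells p11 lies far to the right of p5 and p8 for Il1a.

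No gene reached 1 CPM in every cell library while staying under 0.1 CPM in every tumor. Looser limits were at least 1 CPM in each cell library and under 1 CPM in each tumor. By these 70 genes qualified, 27 of them with a name, against 1590 genes for the reverse. Such limits leave no gap between the types, and Septin3 and Osbp2, for example, were among the 70 but not called. The values that follow were chosen after they were seen. Csf3 and Csf2 encode G-CSF and GM-CSF, the growth factors of granulocytes and macrophages. Csf3 was at 0.756, 0.619 and 0.543 CPM in tumors and 3.47, 12.7 and 60.2 CPM in cells (-5.30 ± 0.93, edgeR adjusted p = 0.000946), and Csf2 at 0.605, 0.671 and 0.620 CPM in tumors and 2.33, 2.53 and 10.7 CPM in cells (-3.01 ± 0.65). Without cells p11 the log2 fold changes were -3.64 for Csf3 and -1.93 for Csf2. Both were highest in cells p11, as was Il1a. Slit1, a guidance molecule, came nearest to the rule among named genes, at 0.151, 0 and 0.0776 CPM in tumors and 1.98, 1.44 and 3.70 CPM in cells. With 0.5 CPM in place of 0.1 CPM as the limit for not expressed, 24 genes were expressed only in cells.

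Of 13 tested genes of the prostaglandin and leukotriene list 8 rose (61.5%, against 21.8% of all genes). Falls numbered 1 (7.69%, against 8.50%), or 2 without cells p11. Alox5 and Alox5ap, the enzyme that makes leukotrienes and its activating protein, rose, Alox5 at 4.61, 5.52 and 5.51 CPM in tumors with no count in cells and Alox5ap at 10.7, 7.28 and 6.36 CPM in tumors, against 2 counts in cells. Ptgis, the prostacyclin synthase of vessels, was at 12.1, 9.24 and 15.4 CPM in tumors and 0, 0.173 and 0.171 CPM in cells (6.75 ± 0.65, edgeR adjusted p = 1.24e-05, and 6.09 on the log2 scale without cells p5). Ptges3, a widespread prostaglandin E synthase and co-chaperone, was at 483, 468 and 336 CPM in tumors and 900.1, 743 and 450.0 CPM in cells and was not called. It was the fall that appeared without cells p11 (log2 fold change -0.94, edgeR adjusted p = 0.0216), and it was also called without a filter, with DESeq2 and with limma-voom.

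Genes of cell division fell by less than these. Of 24 mitosis genes 15 fell and 0 rose, against 8.50% falls among all genes, and the median log2 fold change was -0.90. Kif23, a motor protein of cytokinesis, was at 172, 247 and 217 CPM in tumors and 628, 631 and 419.8 CPM in cells (-1.40 ± 0.25, edgeR adjusted p = 0.00117). Ccna2 (cyclin A2) was at 73.9, 91.4 and 90.5 CPM in tumors and 261, 277 and 133 CPM in cells (-1.39 ± 0.28), and Cenpf, a kinetochore protein, at 103, 201 and 165 CPM in tumors and 433, 470.5 and 316 CPM in cells (-1.38 ± 0.28). For all 3 genes cells p11 was the lowest cell library and still above each tumor. The list summed to 2253, 3086 and 2816 CPM in tumors and 6149, 6409.8 and 3777 CPM in cells. Leaving out cells p5 or cells p8 left 9 falls, and 0 of the 15 passed a test against a change of 2-fold. Mki67, the highest member of the list, was at 274, 528 and 430.2 CPM in tumors and 834, 894 and 494 CPM in cells and was not called (edgeR adjusted p = 0.0596). It was called as a fall without cells p11 (log2 fold change -1.07, edgeR adjusted p = 0.0231), without tumor 2 (-1.11), without a filter, with DESeq2 and with limma-voom.

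Promoters of mitosis genes are known to pair CCAAT boxes with a cell cycle homology region, TTTGAA, so both were counted in the 250 bases before the start site. CCAAT, on either strand, was in 15 of the 20 windows found for mitosis genes, in 9 of the 13 windows of those that fell and in 34.0% of all 33469 windows. It was not particular to them, being in 14 of the 22 windows of DNA replication genes. Of the windows of all falls, 34.0% held it. TTTGAA, on either strand, was in 8 of the 20 windows of mitosis genes and in 2 of the 13 of those that fell (15.4%). The share was 13.6% in the windows of all falls and 16.2% in all windows. The windows of Kif23 (chr8:71320585-71320834, minus strand) and Cenpf (chr13:103760887-103761136, minus strand) are shown as the 2 strongest falls with an entry in the RefSeq table of build GRCr8. Capitals mark CCAAT and TTTGAA on either strand: Kif23 holds 1 of each, and Cenpf 3 CCAAT matches and 0 of TTTGAA.
Kif23: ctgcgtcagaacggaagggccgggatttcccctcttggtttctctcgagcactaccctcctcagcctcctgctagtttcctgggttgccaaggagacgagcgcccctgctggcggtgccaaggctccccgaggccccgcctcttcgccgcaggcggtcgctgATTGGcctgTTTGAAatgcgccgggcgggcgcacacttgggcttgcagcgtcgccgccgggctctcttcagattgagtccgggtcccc
Cenpf: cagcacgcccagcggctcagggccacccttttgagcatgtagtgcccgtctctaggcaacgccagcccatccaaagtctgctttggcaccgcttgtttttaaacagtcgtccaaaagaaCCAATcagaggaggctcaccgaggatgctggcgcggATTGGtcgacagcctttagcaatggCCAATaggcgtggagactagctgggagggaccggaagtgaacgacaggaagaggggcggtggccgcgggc

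Of 26 DNA replication genes, whose products act before mitosis, 3 fell and 0 rose (median log2 fold change -0.24), a share of falls of 11.5%, near the 8.50% of all genes: Pola1, a primase-bound polymerase, Rrm2, a subunit of ribonucleotide reductase, and Mcm4, a helicase subunit. Rrm2 was at 91.8, 105 and 133 CPM in tumors and 226, 294 and 157 CPM in cells (-1.03 ± 0.26, edgeR adjusted p = 0.0108). The count rested on the cell libraries, with 1, 0 and 8 falls without p5, p8 and p11, and the call of Pola1 was lost with housekeeping scaling. Mcm7, the highest member, was at 316, 349 and 321 CPM in tumors and 362, 439 and 254 CPM in cells, a log2 fold change of -0.10 ± 0.24 with a 95% interval of -0.63 to 0.44.

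Carriers of nuclear import and export fell in 13 of 24 genes (54.2%, against 8.50% of all genes), and 0 rose (median log2 fold change -0.68). Xpot, which exports transfer RNA, was at 233, 367 and 396 CPM in tumors and 954, 622 and 687 CPM in cells (-1.18 ± 0.28, edgeR adjusted p = 0.00674). Xpo1, the general exporter of proteins, was at 237, 324 and 306 CPM in tumors and 710.5, 707 and 500.1 CPM in cells (-1.14 ± 0.25), and Kpnb1, the import receptor importin beta, at 375, 520.4 and 579 CPM in tumors and 962, 1000.5 and 681 CPM in cells (-0.84 ± 0.26). Tumor 1 was the lowest of the 6 libraries for each, and the call of Kpnb1 was lost without tumor 2, cells p5 or cells p8 and with scaling from genes over 10 CPM in every library. There were 5 falls when cells p5 was left out, 4 when cells p8 was, and 8 with scaling factors from genes over 10 CPM in every library.

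Amino acid supply and loading went down in part. Of 22 targets of ATF4, the factor that answers a shortage of amino acids, 8 fell (36.4%, against 8.50% of all genes). Rises numbered 2 (9.09%, against 21.8%), or 1 without tumor 1 or cells p8. Slc7a11, the cystine importer, was at 6.50, 7.38 and 9.46 CPM in tumors and 50.4, 15.3 and 47.6 CPM in cells (-2.28 ± 0.41, edgeR adjusted p = 0.00113), and Chac1, which degrades glutathione, at 8.77, 6.86 and 8.45 CPM in tumors and 29.7, 18.02 and 35.1 CPM in cells (-1.78 ± 0.30). Pycr1, an enzyme of proline synthesis in the same list, rose to 93.9, 115 and 94.1 CPM in tumors, against 54.3, 42.8 and 48.2 CPM in cells (1.06 ± 0.20). Of 20 tRNA synthetases 8 fell (40%) and 0 rose, with 5 falls without tumor 3, 3 without cells p5 and 5 without cells p8. Iars1, which loads isoleucine, was at 102, 143 and 188 CPM in tumors and 401, 373 and 321 CPM in cells (-1.34 ± 0.26, edgeR adjusted p = 0.00177).

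Other general machinery had few calls. Of 25 splicing factors 0 were called (4 fell without cells p11), of 27 proteasome subunits 1 fell, Psmc6, of 18 citrate cycle genes 1 fell, Dld, and of 23 mitochondrial ribosomal genes 1 fell, Mrps2. The calls of Psmc6 and Mrps2 were lost without tumor 2 or 3 or cells p5 or p8 and with several other scalings or filters, and that of Dld without cells p5. The list medians were -0.22, -0.01, -0.04 and 0.07 on the log2 scale. Of 24 translation initiation genes 1 fell, Eif3c (0 without tumor 2 or 3 or cells p5 or p8, 2 without tumor 1 and 5 without cells p11), and its call was also lost with scaling from genes over 10 CPM in every library. The 14 housekeeping genes had 0 calls and a median of -0.03, with Ppia (cyclophilin A) at 1641, 1118 and 1000.2 CPM in tumors and 1453, 1277 and 1012 CPM in cells and a 95% interval of -0.60 to 0.62.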

How the data were processed

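RNA of 9 CC-531 samples was measured by mRNA sequencing, and 6 libraries (3 ex vivo tumors, 3 cell passages) were compared. The authors deposited raw counts per gene, used here as they are. Per the paper and the notes on processing, read quality was judged with FastQC 0.11.9 and MultiQC 1.9, cutadapt 1.18 did the trimming, and STAR 2.7.4 the alignment to mRatBN7.2. The strand setting of the counting is not given in the sources used here. Overlapping genes on opposite strands therefore cannot be told apart. Counts were not divided by gene length, so levels are compared between libraries and not between genes.

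edgeR 4.0.16 (R 4.3.3) was used on the counts. Genes were kept by filterByExpr (minimum count 10), TMM set the scaling, and glmQLFit was given the 2 types' means (4 residual degrees of freedom) before a two-sided glmQLFTest. P-values were adjusted by the Benjamini-Hochberg method over all 15690 genes, with calls under 0.05. The standard error was taken as the size of the log2 fold change over the root of its F statistic, and intervals are 95%. For folds where cells had no count, 3 counts over the cell libraries (0.0520 CPM) stood as their floor, and floors cover counting error only. Counts of 15690 genes were simulated for ex vivo tumors against cells, with 100 genes changed by 2-fold and 100 by 4-fold. The procedure recovered 23% of 2-fold and 85% of 4-fold changes, with 12 false calls. The data held far more changes than that.

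The genes named are the 15 highest expressed only in tumors, the 15 largest rises and 15 largest falls of genes with non-overlapping libraries and at least 1 CPM in both types, of each list up to 3 rises, up to 3 falls and the highest member, the 5 highest of each type, and host cell markers with no count in a type. Names that are only identifiers were left out. Other genes were named after their values were seen. The comparison and its 43 gene lists were chosen with earlier results of these data known, so no list is independent support for what those results already show. Of the gene names, 27234 matched the rat RefSeq annotation of GRCr8, from which promoter sequences and biotypes come; its coordinates are not those of the authors' build. The alternatives were a fit of all 9 libraries, 2 other filters, DESeq2 1.42.0, housekeeping and shared-gene scaling, limma 3.58.1 on quantile-normalized values, limma-voom, a 2-fold threshold, other limits for expressed and not expressed, and leaving out each library. Plots were made in Python 3.11.15 (matplotlib 3.10.9).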

Additional observations from a re-analysis of the deposited data

How the results depend on the processing

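Rises outnumbered falls with every fit of counts and with limma-voom, and not with limma on quantile-normalized values, where 3295 genes fell and 2773 rose. Scaling from genes over 10 CPM in every library shifted the median of all genes by 0.15 on the log2 scale, with 3774 rises and 936 falls. A filter on mean quantile-normalized log2 values of at least 4 left 1828 rises, and a threshold of 2-fold left 212 falls. Leaving out 1 library gave 831 to 1304 falls and 2878 to 3458 rises. DESeq2 called 3518 rises and 1700 falls, the fit of all 9 libraries 3251 and 1331, and housekeeping scaling 3004 and 892. The genes expressed only in ex vivo tumors numbered 306 with 5 CPM as the limit for expressed, 1291 with 0.5 CPM as the limit for not expressed, and 818 to 937 with 1 library left out. Those only in cells numbered 24 with 0.5 CPM and 0 to 3 with 1 library left out: 2 without tumor 1, 3 without tumor 2 and 2 without cells p5.

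No paired analysis was possible because the labels give the cells passage numbers and the tumors other numbers, so the types share none.

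Among named genes, 8 that were not called changed sign. Scaling from genes over 10 CPM in every library gave 0.085 for Actb, 0.052 for Hsp90ab1, 0.059 for Mcm7 and 0.12 for Msln, and quantile-normalized values gave 0.055 for Hsp90ab1, 0.15 for Mcm7, 0.18 for Msln and -0.13 for Ppia (all log2). Ppia was at -0.014 with all 9 libraries, -0.011 with DESeq2, -0.062 without a filter, -0.041 with housekeeping scaling and -0.22 with limma-voom, and Eef1a1 at -0.010 with housekeeping scaling. With 1 library left out, Actb ranged over -0.32 to 0.038, Eef1a1 over -0.11 to 0.21, Eef2 over -0.045 to 0.32, Fbln1 over -0.049 to 0.19, Mcm7 over -0.29 to 0.076, Msln over -0.18 to 0.12 and Ppia over -0.26 to 0.13. No called gene that the text names changed sign. The cause of these shifts was not tested. On simulated counts with 100 genes changed at each fold, 23% of 2-fold changes were recovered. The data held 4749 calls, far more changes than were simulated, so this share need not hold for them. With 3 libraries per type, a gene not called may still differ.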

Other observations

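Genes that are expressed from 1 parental copy, and that many tissues silence after birth, were among the lists and are not described above. Of 13 tested imprinted genes 7 rose (53.8%, against 21.8% of all genes) and 1 fell (7.69%, against 8.50%). The falls numbered 2 without cells p5 and 0 without cells p8. Grb10, an adaptor that restrains insulin receptor signaling, was at 18.2, 15.5 and 32.7 CPM in tumors 1, 2 and 3 with no count in cells (at least 407-fold). H19, a long noncoding RNA, was at 3.25, 9.91 and 2.71 CPM in tumors and Peg3, a zinc finger protein, at 3.33, 1.75 and 5.04 CPM, both with no count in cells. Mest went the other way at 5.60, 5.11 and 10.3 CPM in tumors and 12.8, 23.3 and 17.0 CPM in cells p5, p8 and p11 (log2 fold change -1.34 ± 0.36, edgeR adjusted p = 0.0144). The 6 Y-linked genes of the table had no count in any of the 6 libraries. The paper states that the rats of its treatment experiments were female, and the cause of this absence was not tested.

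Some values stood apart from their list or their group and were chosen after they were seen. Eif3e, a core subunit of an initiation factor, was at 0.605, 0.722 and 0.233 CPM in tumors and 1.06, 0.576 and 0.569 CPM in cells, near the low end of expression in both types. Ca3, a carbonic anhydrase of fat and muscle, was at 212 CPM in tumor 1 and at 1.34 and 1.55 CPM in tumors 2 and 3. Dmbt1, a secreted mucin-like protein of epithelium, was at 30.6, 349 and 283 CPM in tumors and 0, 0.173 and 0 CPM in cells, and Muc2, the gel-forming mucin of goblet cells, at 2.50, 60.5 and 27.8 CPM in tumors. Both were lowest in tumor 1, where fat and pancreatic markers were highest. The colon epithelium list also had its highest sum there, at 8289 CPM against 5745 and 5590.3 CPM in tumors 2 and 3. Organoids p7, p8 and p9 had Dmbt1 at 1170, 2.04 and 5.96 CPM and Muc2 at 145, 15.02 and 16.7 CPM. Both genes thus also varied among libraries grown without a host. Why they were low in tumor 1 was not tested.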
